A study of Mus musculus with 6 samples.

Results

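The genes described here are those of the interferon response and innate immunity in mouse embryonic stem cells differentiating as cell aggregates, with and without a static magnetic field. They were chosen by name, as protein-coding rows whose symbols begin like those of interferon-induced proteins, interferon signalling factors, nucleic-acid sensors, antigen presentation proteins, chemokines, interleukins, tumour necrosis factor (TNF) family proteins, complement components, TRIM and PARP proteins, galectins and Ly6 proteins. The rule found 40 of the 2031 genes in the table. All libraries came from the J1 line, of the 129S4/SvJae strain, induced towards heart muscle by hanging drops in which embryoid bodies formed over 3 days. Of the 6 libraries, 3 (NC, controls) come from cells grown in a conventional incubator and 3 (MF) from cells grown in one that applied the static field. Both groups share the line, which is a single one, and the induction. The sources used here give neither the strength of the field nor the collection day. The series calls the libraries biological triplicates without saying what was replicated, so the tests measure the spread between these libraries.

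Library totals lay between 14929232 and 19176383 counts. The table holds only genes that the authors had selected, on these same libraries, for differing between the groups. Of the 1651 named genes whose mean reached 0.5 FPKM (counts scaled to gene length and library total), 97.5% passed edgeR's quasi-likelihood test at a Benjamini-Hochberg adjusted p of 0.05, 62.1% as higher and 35.4% as lower in MF. A call of one of the genes below is therefore no added support, and "rose" and "fell" carry that meaning alone. Genes outside the table were not analysed here, so nothing can be said of their levels; the rule found no interferon receptor, Toll-like receptor or SOCS gene among the deposited rows.

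Interferons are secreted signals of the antiviral defence. Their receptors act through Janus kinases on transcription factors that, together with IRF9, bind the interferon-stimulated response element (ISRE), a promoter sequence of the genes whose products block viral replication. Another promoter sequence of the response is the gamma-activated site (GAS). Cells can enter this pathway by way of sensors that recognise foreign nucleic acids. Pluripotent stem cells are known to respond weakly to interferon and to gain the response as they differentiate.

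Most of these genes were higher in the exposed cells, with exceptions in several families. By the authors' deposited table, 32 of the 40 were higher with the field and 8 were lower, where 63.2% of all 2031 genes were higher. Of the 31 that reached the mean of 0.5 FPKM, 26 rose and 5 fell. The median log2 fold change of those that rose was 1.70, against 1.63 for all 1026 tested genes that rose, and the median of those that fell was -1.28, against -1.82 for all 584 that fell. The genes with large rises were Ifit1 (15.0-fold), Trim55 (10.2-fold), Cxcl12 (7.07-fold), Ifit3 (7.04-fold) and Usp18 (6.996-fold). The mean of 0.5 FPKM was taken over all 6 libraries, so a gene could reach it through its MF values alone. That was so for 7 of the 31 genes, beside 284 of all 1651, whose NC mean was under 0.5 FPKM. Ifit1, Trim55 and Ifit3 are among the 7, so their place among the large rises depends in part on the filter. The genes that fell were Irf1, Ifitm1, Ly6a, Tnfrsf1b and C1qbp. In 29 of the 31 tested genes no MF library overlapped the range of the NC libraries, beside 92.5% of all tested genes. In RNA from whole aggregates, a change in the number of cells of a type and a change in RNA per cell cannot be told apart.

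These calls depended on some single libraries and on the scaling. Without MF replicate 3, 0 of the 31 genes passed edgeR's adjusted test in either direction, although 14 had an unadjusted p under 0.05, and of all 1651 tested genes 12 were called higher and 0 lower. Without MF replicate 1, 9 of the 31 were called higher and 1 lower, beside 357 and 90 of all. Dropping NC replicate 1 gave 13 higher and 2 lower, beside 422 and 219 of all. Dropping NC replicate 2 gave 17 and 2, beside 589 and 146, and dropping NC replicate 3 gave 13 and 3, beside 629 and 383. The calls changed little without MF replicate 2 (23 higher and 5 lower, beside 996 and 582). The same held without both replicate 2 libraries (25 and 5, beside 1027 and 582). Scaling by TMM or by median of ratios, each computed over the selected genes alone, lowered the median log2 fold change of all tested genes by 0.70 and 1.06, and with them 8 and 4 genes were called higher and 5 lower, beside 291 higher and 589 lower by TMM and 158 and 507 by median of ratios among all tested genes. Of the genes that rose, Ifit1, Trim55, Usp18 and Cxcl12 passed with either scaling and C3, Rtp4, Rsad2 and Ifit2 with TMM alone, while every other one passed with neither. The 5 that fell passed with both. With p-values adjusted for the 19069 tests that the authors' adjustment implies, edgeR called 0 of the 31, all of which had an unadjusted p under 0.05.

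**Figure D1:**
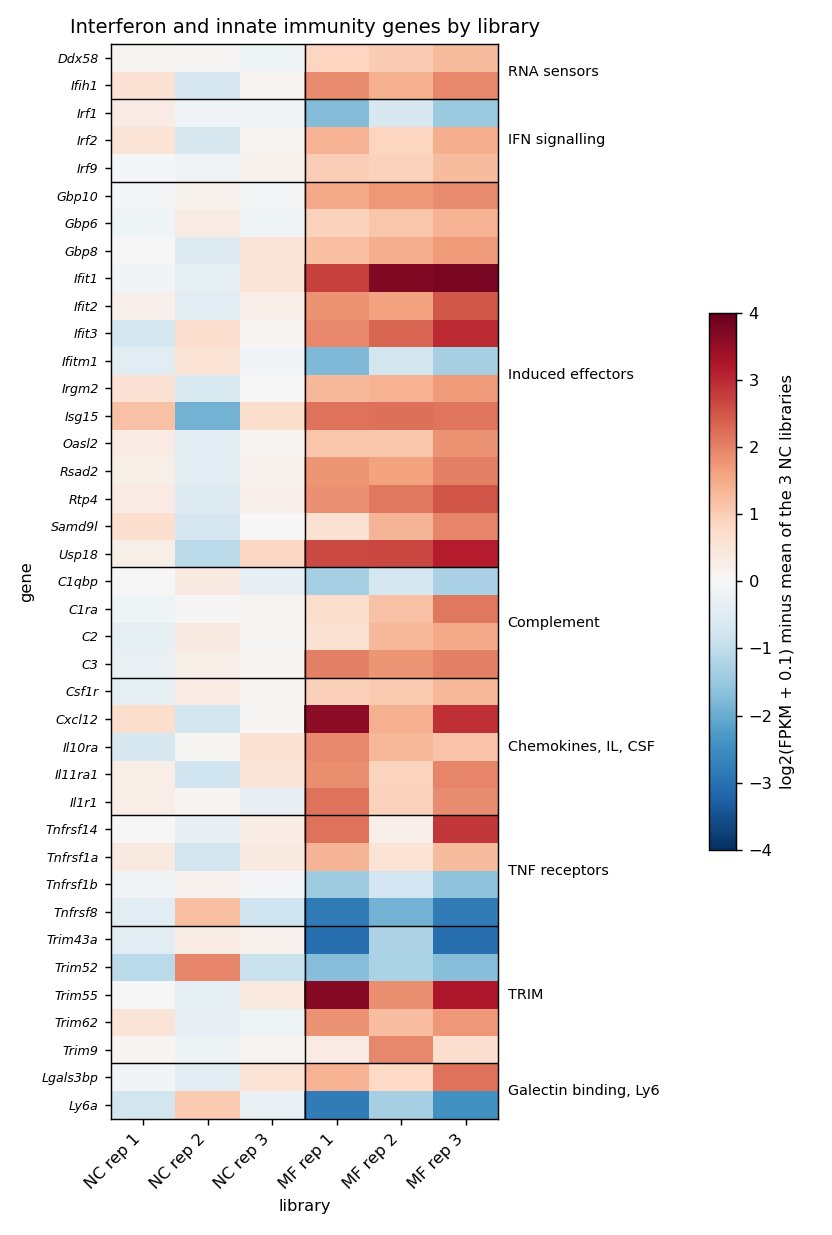
Level of the genes named in the text (rows, grouped by role) in the 6 libraries (columns), as log2(FPKM + 0.1) minus the mean of the 3 NC libraries. Red is above and blue below the NC mean. The induced effectors are red in all 3 MF columns except Ifitm1, and Irf1, C1qbp, Ly6a and some TNF receptor and TRIM genes are blue.

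The cytoplasmic sensors of viral RNA were both higher in MF. Ddx58, which encodes RIG-I, a helicase that recognises short double-stranded RNA (mm10 chromosome 4, 40203773 to 40239828), stood at 3.23, 3.09 and 2.64 FPKM in NC replicates 1 to 3 and 5.43, 6.10 and 7.32 FPKM in MF replicates 1 to 3. No MF library came near the NC range, and the gene rose 2.10-fold (log2 fold change 1.07, SE 0.36, adjusted p = 0.0276 by edgeR). Its log2 fold change was 0.357 with TMM and 0.012 with median-of-ratios scaling, and it passed with neither. Ifih1, which encodes MDA5, the sensor of long double-stranded RNA (mm10 chromosome 2, 62595798 to 62646255), stood at 0.555, 0.175 and 0.361 FPKM in NC replicates 1 to 3 and 1.53, 1.06 and 1.57 FPKM in MF replicates 1 to 3. All MF libraries were above all NC libraries and it rose 3.80-fold (log2 fold change 1.93, SE 0.55, adjusted p = 0.0230 by edgeR). Ddx58 had about the same level in the 3 NC libraries, whereas Ifih1 was lowest in NC replicate 2.

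The interferon regulatory factors divided. Irf9, a DNA-binding factor that acts at the ISRE, stood at 2.13, 2.03 and 2.54 FPKM in NC replicates 1 to 3 and 4.54, 4.34 and 5.54 FPKM in MF replicates 1 to 3. Irf9 rose 2.15-fold (edgeR adjusted p = 0.0288), and its MF libraries were all above its NC libraries. With median-of-ratios scaling its log2 fold change was 0.055. Irf2, which competes with IRF1 for the same sites and mostly represses, stood at 1.28, 0.512 and 0.924 FPKM in NC replicates 1 to 3 and 2.41, 1.61 and 2.5004 FPKM in MF replicates 1 to 3. It rose 2.40-fold.

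Irf1 went the other way. This activator of interferon-induced and antigen presentation genes (mm10 chromosome 11, 53770014 to 53778374) was at 15.5, 10.97 and 11.2 FPKM in NC replicates 1 to 3 and 3.65, 7.93 and 4.37 FPKM in MF replicates 1 to 3. It fell 2.36-fold (log2 fold change -1.24, SE 0.43, adjusted p = 0.0284 by edgeR), and its highest MF value, in replicate 2, stayed below the lowest NC value. In NC the mean level per length of Irf1 (12.6 ± 2.55 FPKM, SD, n = 3) was above those of Irf9 (2.23 ± 0.268) and Irf2 (0.905 ± 0.383). In MF, Irf1 (5.32 ± 2.29) and Irf9 (4.81 ± 0.644) differed by less than the spread of Irf1.

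**Figure D2:**
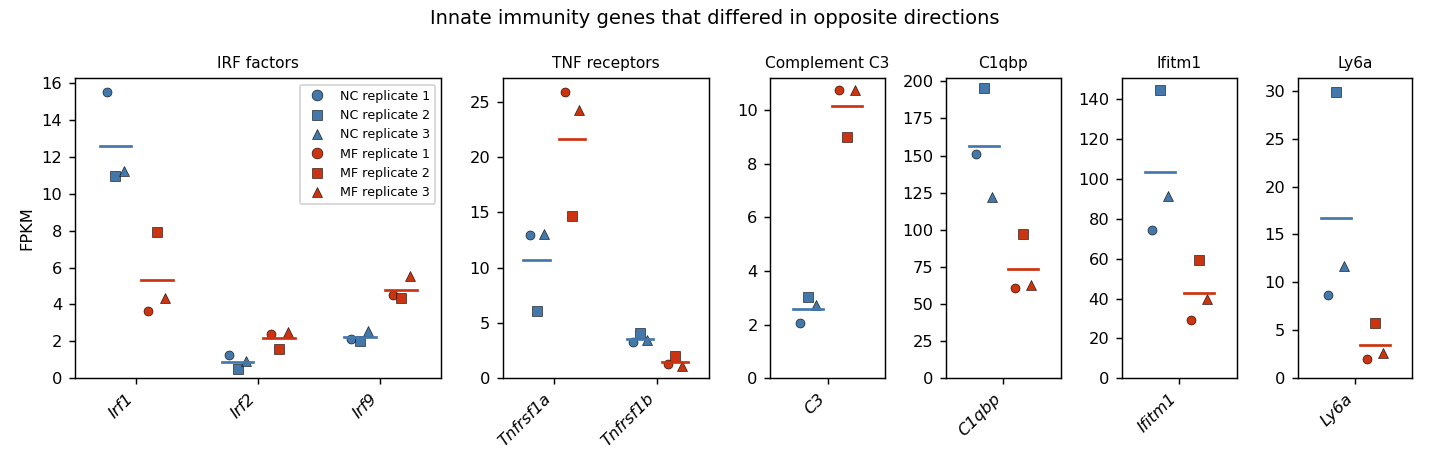
FPKM (linear axes from 0, one scale per panel) of genes that rose and fell within a family, by library, with circles, squares and triangles for replicates 1, 2 and 3 and a bar for the mean of each group of 3. Irf1, Tnfrsf1b, C1qbp, Ifitm1 and Ly6a are lower in every MF library, and Irf2, Irf9, Tnfrsf1a and C3 higher.

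Interferon-induced effectors held the largest rise. The authors' table has 14 of them, with 13 higher, and of the 11 tested 10 rose and 1, Ifitm1, fell. The median log2 fold change of the 10 was 2.03, against 1.63 for all tested genes that rose. Of the 11, 3 (Ifit1, Ifit3 and Samd9l) had an NC mean under 0.5 FPKM and passed the filter only through their MF values. The 3 IFIT genes, whose products bind viral RNA and block its translation, lie in one stretch of chromosome 19. Ifit1 stood at 0.192, 0.140 and 0.353 FPKM in NC replicates 1 to 3 and 2.02, 3.99 and 4.35 FPKM in MF replicates 1 to 3, so its lowest MF value was several times its highest NC value. It rose with a log2 fold change of 3.90 (SE 0.64, edgeR adjusted p = 0.0111). Ifit2 (mm10 chromosome 19, 34550694 to 34576419) was at 0.830, 0.490 and 0.887 FPKM in NC replicates 1 to 3 and 2.74, 2.38 and 4.43 FPKM in MF replicates 1 to 3 and rose 4.32-fold. Ifit3 (mm10 chromosome 19, 34583531 to 34588731) was at 0.0732, 0.356 and 0.192 FPKM in NC replicates 1 to 3 and 0.986, 1.33 and 2.15 FPKM in MF replicates 1 to 3, on few NC counts (2, 10 and 5), and rose 7.04-fold. All 3 had their highest value in MF replicate 3. Ifit3 has a near-identical copy, so its counts are uncertain.

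Genes of the ISG15 system rose too. Isg15, a ubiquitin-like protein that is attached to other proteins after interferon (mm10 chromosome 4, 156199455 to 156200796), was at 13.2, 1.501 and 9.43 FPKM in NC replicates 1 to 3 and 26.3, 27.0 and 26.0 FPKM in MF replicates 1 to 3. The 3 MF libraries were nearly equal (26.4 ± 0.533 FPKM, SD, n = 3), while NC (8.04 ± 5.96) was spread by the low value of replicate 2. Isg15 rose 3.29-fold (log2 fold change 1.72, SE 0.67, adjusted p = 0.0345 by edgeR), and its adjusted p was 0.0607 without MF replicate 2. Usp18, the protease that removes ISG15 and dampens the interferon receptor (mm10 chromosome 6, 121245906 to 121270917), was at 0.641, 0.200 and 1.03 FPKM in NC replicates 1 to 3 and 3.81, 3.88 and 5.44 FPKM in MF replicates 1 to 3. It rose 6.996-fold and was again lowest in NC replicate 2.

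The remaining tested effectors, apart from Ifitm1, rose as well. Rtp4, an interferon-induced chaperone of receptors that also restrains the response (mm10 chromosome 16, 23520291 to 23614222), stood at 1.499, 0.786 and 1.38 FPKM in NC replicates 1 to 3 and 4.40, 5.42 and 7.21 FPKM in MF replicates 1 to 3 and rose 4.63-fold (log2 fold change 2.21, SE 0.51, adjusted p = 0.0151 by edgeR). Rtp4 shares 13.9% of its exon bases with the predicted gene Gm45338. Rsad2, which encodes viperin, an enzyme that makes a chain-terminating nucleotide, was at 0.648, 0.372 and 0.618 FPKM in NC replicates 1 to 3 and 2.03, 1.81 and 2.47 FPKM in MF replicates 1 to 3 and rose 3.84-fold. Both were below 1.5 FPKM in every NC library and above 1.8 FPKM in every MF library. Oasl2, of the oligoadenylate synthetase family, was at 0.962, 0.536 and 0.809 FPKM in NC replicates 1 to 3 and 1.75, 1.72 and 2.83 FPKM in MF replicates 1 to 3 and rose 2.73-fold. Irgm2, an immunity-related GTPase, was at 1.90, 0.791 and 1.27 FPKM in NC replicates 1 to 3 and 3.21, 3.44 and 4.26 FPKM in MF replicates 1 to 3 and rose 2.75-fold. Neither gene overlapped between the groups. Samd9l, an antiviral translation repressor, was at 0.647, 0.194 and 0.358 FPKM in NC replicates 1 to 3 and 0.605, 1.10 and 1.72 FPKM in MF replicates 1 to 3, and MF replicate 1 lay below NC replicate 1. It rose 2.85-fold (edgeR adjusted p = 0.0443) but did not pass with the replicate number as a block (adjusted p = 0.0514).

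Ifitm1 was the effector that fell. It belongs to the membrane proteins that hinder virus entry and is also abundant in early embryonic and germ cells (mm10 chromosome 7, 140967221 to 140969825). Its levels were 74.5, 145 and 91.5 FPKM in NC replicates 1 to 3 and 29.4, 59.2 and 39.6 FPKM in MF replicates 1 to 3. It fell 2.42-fold (log2 fold change -1.28, SE 0.43, adjusted p = 0.0277 by edgeR), and no library overlapped. Per length it stayed the most abundant of the tested effectors in both groups, with 42.8 ± 15.2 FPKM in MF (SD, n = 3) against 26.4 ± 0.533 for Isg15.

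**Figure D3:**
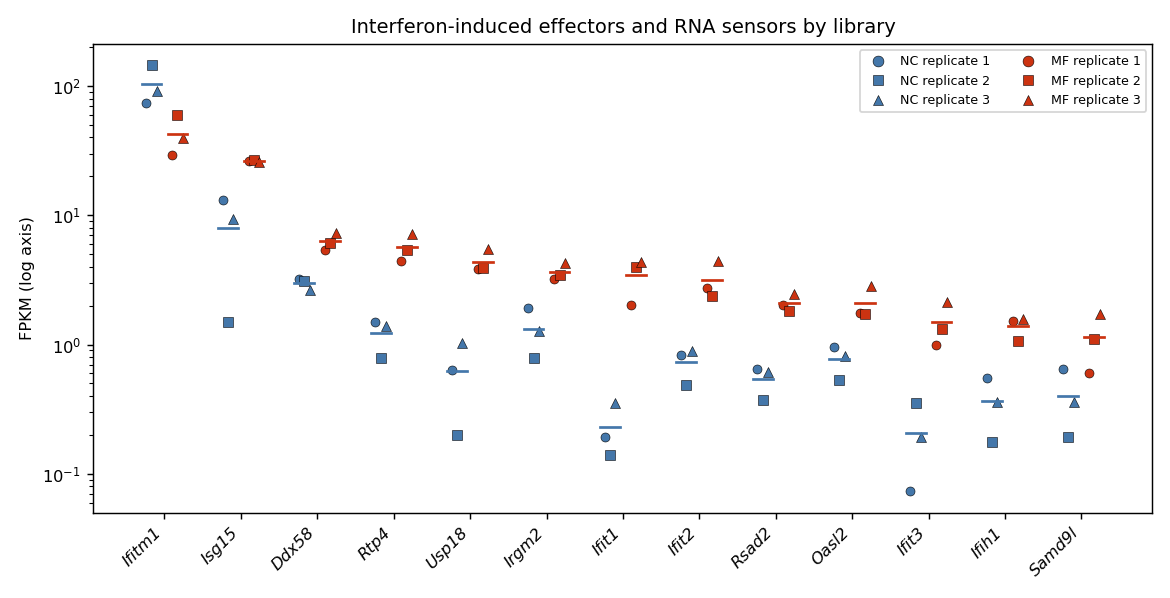
FPKM on a log axis of the 13 tested effector and sensor genes, ordered by their MF mean, with circles, squares and triangles for replicates 1, 2 and 3 and a bar for the mean of each group of 3. MF values lie above NC values for every gene except Ifitm1, which is lower in MF, and Samd9l, where the groups overlap.

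The 3 guanylate-binding proteins in the table, interferon-induced GTPases that attack the membranes of intracellular pathogens, had means under 0.5 FPKM and were not tested. Gbp8 stood at 0.148, 0.0721 and 0.253 FPKM in NC replicates 1 to 3 and 0.470, 0.570 and 0.696 FPKM in MF replicates 1 to 3. Gbp6 had 0, 4 and 0 counts in NC and 13, 14 and 19 in MF. Gbp10 had 0, 1 and 0 counts in NC and 15, 16 and 18 in MF, a ratio of 43.8 with an exact 95% counting interval from 7.50 to 1764, which covers counting error alone. In each of them all MF libraries were above all NC libraries. Gbp6 and Gbp10 are near-identical neighbours on chromosome 5 and share 29.0% and 46.3% of their annotated exon bases with the predicted gene Gm43302, so their counts are uncertain.

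The promoters were searched for the sequences that these pathways are known to use. RefSeq windows (build GRCm38.p6, the assembly that mm10 names) from 250 bases before to 50 after the start were found for 29 of the 40 genes. The ISRE core, here GAAA, any 2 bases and GAAA, read on both strands, occurred in 10 of these 29 windows (34.5%), in 3.99% of the 27025 genes with a window, in 4.50% of the 711 other tested genes that rose and in 2.93% of the 410 other genes that fell. By role it was in 5 of 9 effectors and in both sensors. It was in 2 of 4 TNF family genes and in 1 of 3 signalling factors. It was in 0 of 3 complement and 0 of 4 TRIM windows, and in the single galectin and Ly6 window there was no match. It was also in 0 of 3 windows of the group of chemokines and of receptors for interleukins and colony-stimulating factors. The GAS core TTCNNNGAA was in 7 of 29 windows (24.1%), beside 9.55% of all genes. It overlapped no ISRE match in the windows of these genes, and the NF-kB motif, here GGGA, any base and TTTCC, was found in 0 of 29, beside 0.466% of all. Among the genes here, the ISRE core was in 9 of 20 windows of those that rose and 1 of 4 of those that fell. The GAS core was in 4 of 20 and 2 of 4. Many of these genes were chosen by names of interferon-induced genes, so their share of ISRE matches says nothing about the field. A match is a string of letters, not a bound site.

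The stretches with ISRE matches before the start are shown for the effectors that rose and for Tnfrsf1b, which fell. They are written 5′ to 3′ in the direction of the gene, with 30 bases on each side and the matches in capitals. Each ends at the start at the latest, so that of Tnfrsf1b has no bases after its match. None of the shown stretches overlaps an annotated exon. Irf2 and Tnfrsf14, which rose, also had an ISRE match before the start, ending 232 and 55 bases from it. Their stretches overlap annotated exons and are not shown. The start is that of RefSeq's window, and for Irgm2 it lies inside the annotated gene (mm10 chromosome 11, 58199618 to 58222782).
Ifit1 (chr19:34640755-34640843, plus strand): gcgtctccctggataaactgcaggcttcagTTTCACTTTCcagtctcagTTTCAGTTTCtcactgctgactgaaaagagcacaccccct
Ifit3 (chr19:34583343-34583446, plus strand): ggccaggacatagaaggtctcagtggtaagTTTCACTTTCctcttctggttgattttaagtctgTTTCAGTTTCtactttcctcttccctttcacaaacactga
Isg15 (chr4:156200845-156200926, minus strand): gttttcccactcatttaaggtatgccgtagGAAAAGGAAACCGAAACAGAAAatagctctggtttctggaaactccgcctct
Rsad2 (chr12:26456533-26456602, minus strand): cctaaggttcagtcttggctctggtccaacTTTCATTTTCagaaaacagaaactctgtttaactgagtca
Irgm2 (chr11:58214883-58214952, plus strand): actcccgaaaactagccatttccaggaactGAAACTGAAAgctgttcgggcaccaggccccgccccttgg
Tnfrsf1b (chr4:145246871-145246910, minus strand): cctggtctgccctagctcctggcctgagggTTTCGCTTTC
Ifit1 and Ifit3 each held a pair of separate matches that read TTTC, the reverse strand of the motif, and Isg15 held 3 that overlap in one run. The matches nearest the start lay 76 bases before it in Ifit1, 113 in Ifit3, 57 in Isg15, 111 in Rsad2 and 55 in Irgm2. That of Tnfrsf1b ended directly at the start. In Ddx58 and Ifih1 the match lay after the start, from base 3 to 12 and from base 33 to 42. Ifit2, Oasl2, Samd9l and Ifitm1 had no ISRE match in their windows, and the window of Irf1 held a GAS match 82 bases before the start.

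**Figure D4:**
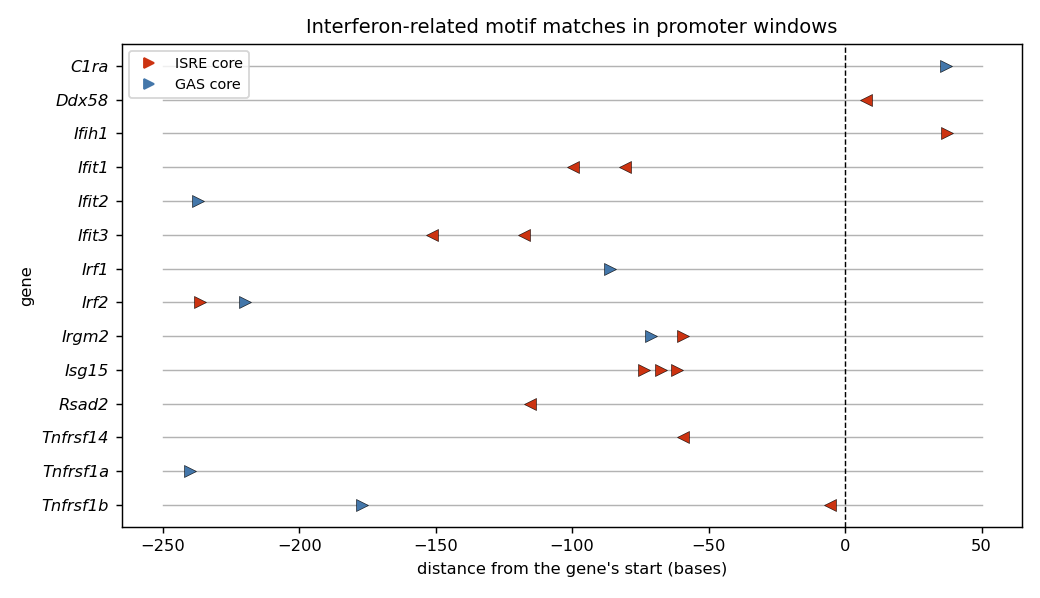
Position of ISRE core (red) and GAS core (blue) matches relative to the start (dashed line, in bases) in the RefSeq windows of the 14 genes with a match. Triangles point right for a match on the gene's strand and left for one on the opposite strand, and the ISRE matches of the effectors lie between 55 and 156 bases before the start.

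Complement genes were higher in MF apart from C1qbp. C3, the central component that all complement pathways cleave (mm10 chromosome 17, 57203970 to 57228136), stood at 2.05, 3.03 and 2.72 FPKM in NC replicates 1 to 3 and 10.7, 9.02 and 10.7 FPKM in MF replicates 1 to 3. The 3 MF libraries were close to each other and far above the highest NC value, and C3 rose 3.91-fold (log2 fold change 1.97, SE 0.38, adjusted p = 0.0111 by edgeR). C2, a protease of the classical pathway, was at 0.346, 0.641 and 0.502 FPKM in NC replicates 1 to 3 and 0.795, 1.35 and 1.56 FPKM in MF replicates 1 to 3 and rose 2.48-fold, with 42.8% of its exon bases shared with the predicted gene Gm20547. C1ra, a protease of the first component, had 0.129, 0.167 and 0.180 FPKM in NC replicates 1 to 3 and 0.315, 0.479 and 1.01 FPKM in MF replicates 1 to 3 and was not tested. C1qbp, named for binding a complement subunit but mainly a mitochondrial matrix protein (mm10 chromosome 11, 70977836 to 70983026), was at 151, 195 and 122 FPKM in NC replicates 1 to 3 and 60.5, 97.2 and 62.7 FPKM in MF replicates 1 to 3. It fell 2.13-fold (log2 fold change -1.09, SE 0.41, adjusted p = 0.0321 by edgeR) and is the most abundant gene of the 40.

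In the chemokine, interleukin and colony-stimulating factor group, Cxcl12 encodes a ligand and the other genes encode receptors. All 5 were listed as higher, and the 4 tested rose. Cxcl12, the chemokine that attracts CXCR4-bearing progenitors and shapes vessels of the heart (mm10 chromosome 6, 117168535 to 117181367), stood at 3.11, 1.09 and 1.92 FPKM in NC replicates 1 to 3 and 23.3, 5.14 and 14.8 FPKM in MF replicates 1 to 3. It rose 7.07-fold (log2 fold change 2.82, SE 0.62, adjusted p = 0.0133 by edgeR), with MF replicate 2 much closer to NC than the other MF libraries. Il1r1, the signalling receptor of interleukin-1, was at 0.994, 0.849 and 0.621 FPKM in NC replicates 1 to 3 and 3.96, 1.63 and 3.28 FPKM in MF replicates 1 to 3 and rose 3.596-fold. Il11ra1, the interleukin-11 receptor subunit, was at 3.71, 1.71 and 4.42 FPKM in NC replicates 1 to 3 and 11.3, 5.70 and 12.01 FPKM in MF replicates 1 to 3 and rose 2.94-fold, although near-identical copies make its counts uncertain. In both, MF replicate 2 was again the lowest MF library. Csf1r, the receptor of macrophages and their progenitors, was at 1.01, 1.72 and 1.46 FPKM in NC replicates 1 to 3 and 2.75, 2.94 and 3.55 FPKM in MF replicates 1 to 3 and rose 2.20-fold, with 15.1% of its exon bases shared with Hmgxb3 on the other strand. Its log2 fold change was 0.0472 with median-of-ratios scaling. Il10ra, of the interleukin-10 receptor, was at 0.0730, 0.177 and 0.306 FPKM in NC replicates 1 to 3 and 0.924, 0.579 and 0.492 FPKM in MF replicates 1 to 3 and was not tested.

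The receptors for TNF differed in direction. Tnfrsf1a, the widely expressed receptor that can signal cell death (mm10 chromosome 6, 125349362 to 125362484), stood at 13.0, 6.04 and 13.1 FPKM in NC replicates 1 to 3 and 25.9, 14.7 and 24.2 FPKM in MF replicates 1 to 3. It rose 2.02-fold (log2 fold change 1.01, SE 0.44, adjusted p = 0.0458 by edgeR), but its log2 fold change was -0.0298 with median-of-ratios scaling. Tnfrsf1b, the second receptor, which has no death domain (mm10 chromosome 4, 145213463 to 145246870), was at 3.25, 4.05 and 3.49 FPKM in NC replicates 1 to 3 and 1.28, 2.04 and 1.11 FPKM in MF replicates 1 to 3 and fell 2.43-fold (log2 fold change -1.28, SE 0.45, adjusted p = 0.0301 by edgeR). Neither gene's groups overlapped, and per length Tnfrsf1a had the higher level in every library. Tnfrsf14, the herpesvirus entry mediator, was at 0.133, 0.0863 and 0.186 FPKM in NC replicates 1 to 3 and 0.943, 0.166 and 1.54 FPKM in MF replicates 1 to 3 and rose 6.33-fold. Its value in MF replicate 2 lay within the NC range. Tnfrsf8, which encodes CD30, was at 0.517, 1.79 and 0.368 FPKM in NC replicates 1 to 3 and 0.0151, 0.120 and 0.0178 FPKM in MF replicates 1 to 3 and was not tested.

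TRIM ubiquitin ligases made up the next group, and the table holds no PARP gene of the rule. Trim55, a protein of the muscle sarcomere (mm10 chromosome 3, 19644474 to 19692421), stood at 0.360, 0.257 and 0.504 FPKM in NC replicates 1 to 3 and 5.73, 1.57 and 4.25 FPKM in MF replicates 1 to 3 and rose 10.2-fold (log2 fold change 3.36, SE 0.65, adjusted p = 0.0111 by edgeR). Trim62 was at 1.08, 0.557 and 0.641 FPKM in NC replicates 1 to 3 and 2.82, 1.88 and 2.67 FPKM in MF replicates 1 to 3 and rose 3.22-fold. Both were lowest among the MF libraries in replicate 2. The 3 other TRIM genes had means under 0.5 FPKM and were not tested. Trim9, a ligase of neurons, had 5, 0 and 5 counts in NC and 12, 80 and 19 in MF, most of them in MF replicate 2. Trim43a, a gene of the preimplantation embryo with near-identical copies, had 15, 28 and 24 counts in NC and 0, 8 and 0 in MF. Trim52 had 3, 66 and 4 counts in NC and 0, 2 and 0 in MF, and most of its counts came from NC replicate 2.

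The last group had a gene in each direction. Lgals3bp, a secreted glycoprotein that binds galectins (mm10 chromosome 11, 118392751 to 118402092), was at 3.21, 2.57 and 5.18 FPKM in NC replicates 1 to 3 and 9.36, 6.21 and 16.0 FPKM in MF replicates 1 to 3 and rose 2.88-fold (log2 fold change 1.53, SE 0.49, adjusted p = 0.0258 by edgeR). Ly6a, the surface antigen Sca-1 of stem and progenitor cells (mm10 chromosome 15, 74994877 to 74998031), was at 8.69, 29.9 and 11.7 FPKM in NC replicates 1 to 3 and 1.99, 5.73 and 2.60 FPKM in MF replicates 1 to 3 and fell 4.87-fold (log2 fold change -2.28, SE 0.63, adjusted p = 0.0216 by edgeR). NC replicate 2 was far above the other NC libraries for Ly6a, and the groups did not overlap.

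For a gene that rose, the highest MF library was a median of 1.64 times the lowest among the effectors. The median was also 1.64 among all 26 genes here that rose, and 1.97 among all tested genes that rose. Among the NC libraries the spread of the effectors was not smaller, with a median of 2.46. The NC median was 2.09 among the 26 genes and 2.06 among all tested genes that rose. Over all tested genes that rose, MF replicate 2 was not the lowest MF library in 16.8%. Among the 26 genes here that rose this held for 10, and 7 of these are among the 10 effectors. On the log2(FPKM + 0.1) scale MF replicate 2 lay below the mean of the other MF libraries by a median of 0.74 over all tested genes that rose. The corresponding median difference was -0.30 for the 26 genes and -0.12 for the 10 effectors. It was -1.06 for the 4 tested genes of the chemokine, interleukin and colony-stimulating factor group. For the genes that fell, MF replicate 2 was the highest MF library in 5 of 5 here and in 525 of 584 overall. NC replicate 2 was the lowest NC library for 20 of the 26 genes here and for 745 of all 1026 genes that rose. No test was made of these differences between lists.

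**Figure D5:**
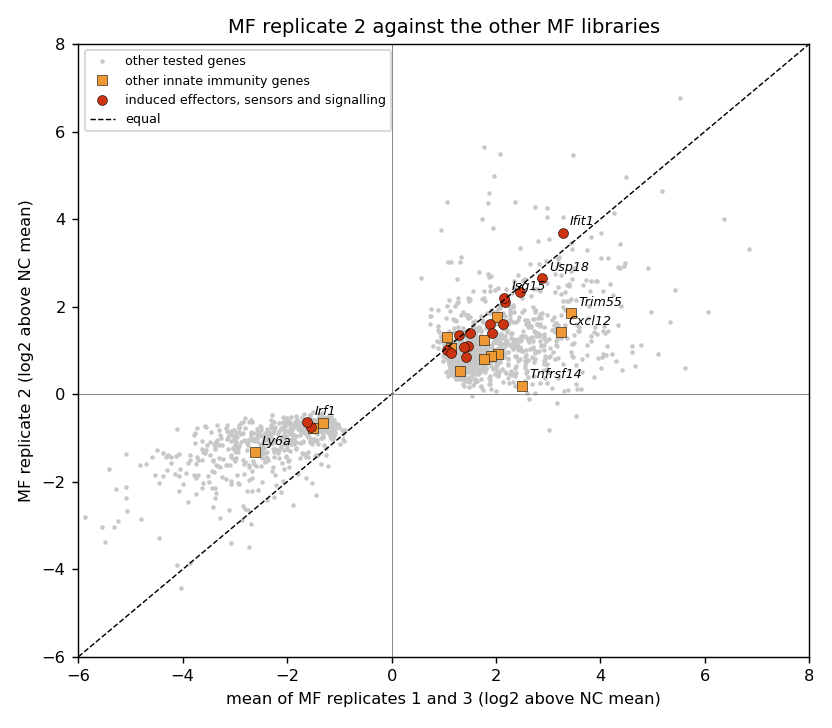
MF replicate 2 (vertical axis) against the mean of MF replicates 1 and 3 (horizontal axis), each as log2(FPKM + 0.1) above the mean of the NC libraries, for the 1651 tested genes (grey), the effector, sensor and signalling genes (red) and the other innate immunity genes (orange). Most red points that rose lie near the dashed line of equality, while those of Irf2, Ifit2 and Ifih1 lie further below it. Cxcl12, Trim55 and Tnfrsf14 lie well below it.

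Markers of other cell types moved with the groups. Among 10 fibroblast and mesenchyme markers, the 9 in the table all rose, and their summed level was 176 to 323 FPKM in NC and 297, 1170 and 1397 FPKM in MF replicates 2, 3 and 1. Among 10 cardiomyocyte markers 7 were in the table and rose, with sums from 28.6 to 68.1 FPKM in NC and from 108 to 636 in MF. Both lists were thus lowest among the MF libraries in replicate 2, as were most genes that rose. In 6 of the 9 fibroblast and mesenchyme markers and 5 of the 7 cardiomyocyte markers the groups did not overlap. Over all tested genes this held for 92.5%. MF replicate 2 was not the lowest MF library in 16.8% of all tested genes that rose. The same held for 10 of the 26 genes here that rose. The sum of the cardiomyocyte list is mostly Actc1 and Myl7, and its member Myl2 was highest in MF replicate 2 (8.58, 15.6 and 1.70 FPKM in MF replicates 1 to 3). The 4 deposited of 9 pluripotency markers fell, from a sum of 274 to 750 FPKM in NC, highest in replicate 2, to 65.5 to 185 in MF. Of the 5 innate immunity genes that fell, 4 were also highest among the NC libraries in replicate 2, and Irf1 was lowest there. NC replicate 2 was likewise the highest NC library for 477 of all 584 tested genes that fell. Of 8 endothelial markers 5 were in the table, of which 4 rose and Pecam1 fell. Their sums were from 12.4 to 42.8 FPKM in NC and from 21.9 to 41.3 in MF. Pecam1 alone made up 38.2 of the 42.8 FPKM, in NC replicate 2. For each of the 4 that rose the groups did not overlap, as for 92.5% of all tested genes. Gata6 alone was deposited among 8 endoderm markers and rose, from 0.981 to 2.93 FPKM in NC to between 2.19 and 25.9 in MF, with overlap of the groups. Of the 15 blood and macrophage markers Csf1r is the one in the table, and of 8 erythroid markers there was none, so the others were not analysed here. Among the deposited markers one value was 0, that of Lum in NC replicate 2. The part of these cell types in the results above was not tested.

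Other genes of the pathway lay outside the name rule. Of a list of 62 interferon pathway symbols 5 were deposited, of which 4 rose and 1 fell. Over all genes, 2031 were deposited, beside the 19069 tests that the authors' adjustment implies. Ikbke, a kinase that activates interferon regulatory factors, was at 1.27, 0.688 and 1.05 FPKM in NC replicates 1 to 3 and 2.69, 2.42 and 2.96 FPKM in MF replicates 1 to 3 and rose 2.68-fold. Ticam1, the adaptor TRIF of Toll-like receptors, was at 3.24, 2.03 and 2.98 FPKM in NC replicates 1 to 3 and 6.45, 4.04 and 6.47 FPKM in MF replicates 1 to 3 and rose 2.05-fold. Tdrd7, an interferon-induced tudor protein, was at 6.96, 3.86 and 6.82 FPKM in NC replicates 1 to 3 and 12.2, 11.9 and 12.6 FPKM in MF replicates 1 to 3 and rose 2.08-fold. In each of these the groups did not overlap. Serping1, the inhibitor of the first complement component, was at 4.15, 2.86 and 3.66 FPKM in NC replicates 1 to 3 and 5.09, 8.22 and 8.83 FPKM in MF replicates 1 to 3 and rose 2.07-fold. Aim2, a sensor of cytoplasmic DNA, was at 2.65, 5.16 and 3.06 FPKM in NC replicates 1 to 3 and 0.998, 2.40 and 0.983 FPKM in MF replicates 1 to 3 and fell 2.48-fold (edgeR adjusted p = 0.0403), in contrast to the RNA sensors. Of 29 symbols of complement and NF-kB signalling 5 were deposited, C1ra included, beside the same 2031 genes and 19069 tests overall. Vtn, which encodes vitronectin, a plasma protein that also restrains complement, rose 8.93-fold with its highest value in MF replicate 2 (5.34, 31.1 and 10.5 FPKM in MF replicates 1 to 3). Masp1, a protease of the lectin pathway, rose 4.62-fold. The adhesion molecule Vcam1 (0.101, 0.0420 and 0.0906 FPKM in NC replicates 1 to 3 and 0.835, 0.450 and 0.755 FPKM in MF replicates 1 to 3) and the TNF receptor adaptor Traf1 (0.210, 0.289 and 0.167 FPKM in NC replicates 1 to 3 and 0.0414, 0.0945 and 0.0348 FPKM in MF replicates 1 to 3) were not tested.

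Other fits adjusted for those 19069 tests, with ranks counted among the deposited genes, called part of the 31. A replicate block in edgeR called 9 of the 31 higher and 2 lower, beside 22.8% and 7.75% of all tested genes. DESeq2 over the same tests called 12 higher and 1 lower, beside 29.0% and 7.21%. Ifit1, Ifit2, Usp18, Rtp4, C3, Cxcl12, Trim55 and Ly6a passed by both. Irf1, Irf2, Irf9, Isg15 and Ddx58 passed by neither.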

How the data were processed

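Poly-A RNA was sequenced in 3 NC and 3 MF libraries, according to the labels' protocols. The submitters' processing notes name HISAT2 2.0.5, featureCounts and build mm10 without settings, and the sources used here do not state strand use. Per the file headers, the authors deposited for each gene a raw count, an FPKM value, a normalized signal, and, from their own comparison, a log2 fold change and a raw and adjusted p-value. The 2031 genes had been selected by the authors, with adjusted p at most 0.0499 and absolute log2 fold change at least 1.001, and take between 5.68% and 10.4% of the library totals, which were recovered from counts, lengths and FPKM. For a 1 kb gene, 3 counts equal 0.156 to 0.201 FPKM at these depths.

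The 1651 named genes whose mean reached 0.5 FPKM were tested with edgeR 4.0.16 (R 4.3.3), quasi-likelihood, two-sided, group as the only term, recovered totals as library sizes, Benjamini-Hochberg adjustment over these genes at 0.05. The 48 rows without a name stayed out (between 0.0134% and 0.0390% of the totals). SE is the log2 fold change divided by the root of the test statistic. Adjustment over the 19069 tests, recovered from the authors' p-values at their top 30 ranks, counts ranks among deposited genes alone. Alternatives used limma 3.58.1 and DESeq2 1.42.0. Across genes, NC and MF libraries of one number deviated together from their groups (correlations 0.40, 0.54 and 0.35); NC replicate 3 and MF replicate 1 did so too, at 0.54. The numbers were taken as pairs from the values, not from a label, and the replicate block is an alternative. No libraries agreed within sampling noise (chi-square over its degrees of freedom 20.9 to 250). The pipeline was tested on simulated data with less spread between libraries than here, in which most genes did not differ. That test does not tell how it performs on these selected genes.

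Genes were chosen by the name rule, with values or counts for each library of the genes named. Outside the effector, signalling and sensor groups, values had been planned for up to 6 tested genes of a group. Those of the untested C1ra, Il10ra, Tnfrsf8, Trim9, Trim43a and Trim52 were added to these. A gene of the rule that stays in the counts is not reported here. These genes and all lists were chosen with earlier results of these data known. The 4 matching rows of another biotype were left out of the counts. Overlaps use GENCODE M21 exons, and promoter windows come from RefSeq.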

Additional observations from a re-analysis of the deposited data

How the results depend on the processing

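The log2 fold changes of the 31 tested genes kept their sign in edgeR, DESeq2 and limma fits, with the replicate block and without each library, except Tnfrsf1a, at -0.0298 with median-of-ratios scaling, under which Ddx58 (0.012), Csf1r (0.0472) and Irf9 (0.055) were near 0 too. Leaving out 1 library gave between 12 and 996 genes called higher and between 0 and 582 lower among all tested genes, and between 0 and 23 higher and between 0 and 5 lower among the innate immunity genes. In these fits a group keeps 2 libraries. A minimum of 2 FPKM left 611 higher and 369 lower, and 14 higher innate immunity genes, because fewer genes were tested; no filter gave 8 lower. TMM called 291 genes higher, 8 of them innate immunity genes, and median-of-ratios scaling 158 and 4; both assume balanced changes among genes of which most are higher. Adjusted over the recovered tests edgeR called 0 higher and 0 lower in both sets, with 1613 and 31 genes at an unadjusted p under 0.05; the smallest adjusted p was 0.0561 over all tested genes and 0.128 among the innate immunity genes. Over the same tests, both added after the data had been seen, the replicate block called 376 higher and 128 lower, with 9 and 2 innate immunity genes, and DESeq2 479 and 119, with 12 and 1. Over the tested genes alone, the replicate block changed no call of the 31 other than that of Samd9l, at an adjusted p of 0.0514. Genes with few counts, such as Gbp6, Gbp10 and Trim52, are limited by depth.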

Other observations

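The name rule also met 4 rows that the files class as polymorphic pseudogenes, which can be intact in some mouse strains. Mx2, an interferon-induced dynamin-like GTPase, was at 0.194, 0.223 and 0.222 FPKM in NC replicates 1 to 3 and 0.750, 0.659 and 1.21 FPKM in MF replicates 1 to 3 and rose 4.06-fold. Oas1b, of the oligoadenylate synthetase family, was at 0.545, 0.249 and 0.572 FPKM in NC replicates 1 to 3 and 1.15, 1.85 and 1.42 FPKM in MF replicates 1 to 3 and rose 3.22-fold. Both were above the NC range in every MF library. The only antigen presentation rows in the table belong to this class. H2-Bl, a class I histocompatibility gene named for the blastocyst, was at 7.25, 3.73 and 7.21 FPKM in NC replicates 1 to 3 and 18.4, 12.7 and 10.2 FPKM in MF replicates 1 to 3 and rose 2.27-fold. H2-T10, of the same complex, was at 1.72, 0.617 and 1.21 FPKM in NC replicates 1 to 3 and 0.122, 0.348 and 0.288 FPKM in MF replicates 1 to 3 and fell 4.67-fold (edgeR adjusted p = 0.0243). The H2 genes have near-identical copies, and H2-T10 shares 27.1% of its exon bases with BC023719, so their counts are uncertain.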
